A study of Mus musculus with 4 samples.

Results

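The CD3 complex genes of the mouse are Cd3g, Cd3d, Cd3e and Cd247, which encode the CD3 gamma, delta and epsilon chains and the zeta chain of the T cell receptor complex. They were taken by symbol and make up 4 of the 31053 genes counted in each of the 2 mRNA libraries. Their molecules were counted in 8797 cells of experiment 1 and 8335 cells of experiment 2 that carried a single hashtag, an antibody-bound barcode that marks the culture a cell came from. The libraries were made to compare early T cell precursors with raised or lost Runx1 and Runx3, transcription factors that bind DNA with Cbfb. Bone marrow progenitors of mice aged 8 to 10 weeks were cultured on OP9-Dll1, a bone marrow stromal line that displays the Notch ligand Dll1, with IL-7 and Flt3 ligand at 10 ng/ml each. For overexpression, B6.Bcl2 cells received MSCV-Runx1-mCherry or MSCV-empty-mCherry by retrovirus on day 2 and were harvested on day 4 or 6. For knockout, B6.Cas9;Bcl2 cells received E42-gRunx1-hNGFR with E42-gRunx3-mTurquoise, or E42-gControl-hNGFR with E42-gControl-mTurquoise, and were harvested on day 5 or 8, with 3 guide pairs per gene and control guides against luciferase. All groups carry the Bcl2 transgene, which blocks cell death, so cells that would otherwise die can remain in every culture. Live Lineage-negative CD45+ cells with the vector markers were sorted, stained with 1 hashtag per culture and pooled in equal numbers. The labels call the cells Phase 1 (cKit high) double negative cells and give 4 to 5 days of culture for experiment 1 and 4 to 8 days for experiment 2. The labels do not tie a hashtag to a vector, a guide or a harvest day. Each hashtag is therefore 1 sample of unknown condition, no condition is compared, and no p-value is given. Hashtag 4 of experiment 1 and hashtag 4 of experiment 2 share a tag and not a culture.

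In a mature T cell, CD3 epsilon pairs with CD3 gamma and with CD3 delta, and a pair of zeta chains joins them, so that the complex holds the antigen-binding receptor at the surface. The receptor chains have almost no cytoplasmic tail. The CD3 and zeta chains carry the ITAMs, tyrosine motifs that Lck phosphorylates and that then bind Zap70. The same chains serve the pre-T cell receptor at the beta-selection checkpoint, which follows the stages sampled here. Progenitors first pass through a Kit-high stage without CD25 and a Kit-high stage with CD25 (Il2ra), and commitment follows when Bcl11b is switched on. Zeta is also a signalling adaptor of NK cell receptors, where it works without the other CD3 chains.

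Cd3g, Cd3d and Cd3e lie side by side on chromosome 9, and Cd247 lies on chromosome 1. In RefSeq annotation on GRCm38.p6, Cd3g spans chr9:44969572-44980431 on the minus strand, Cd3d spans chr9:44981769-44987052 on the plus strand and Cd3e spans chr9:44998735-45009663 on the minus strand. The gap between Cd3g and Cd3d, which are transcribed away from each other, is 1337 bases. The 3 genes fall within 40092 bases, and the table lists no other gene between them. Cd247 spans chr1:165779952-165871153 on the plus strand. The 250 bases before the annotated start of each gene are printed because 3 of the genes are neighbours with similar profiles over the cultures of both experiments, and Cd247, on another chromosome, shared that profile less, above all in experiment 1. Capitals mark the letters searched for 5 families of factors that act in these cells, on both strands, and each line runs 5′ to 3′ on the gene's own strand. The windows are chr9:44980432-44980681 for Cd3g, chr9:44981536-44981785 for Cd3d, chr9:45009612-45009861 for Cd3e and chr1:165788431-165788680 for Cd247. All 4 genes matched the RefSeq promoter table, which gives 1 start per gene. For Cd3d, Cd3e and Cd247 that start lies inside the limits of the gene as listed. The whole Cd247 window lies inside the listed gene, downstream of its first base at chr1:165779952. The windows of Cd3d and Cd3e lie mostly outside theirs.
Cd3g: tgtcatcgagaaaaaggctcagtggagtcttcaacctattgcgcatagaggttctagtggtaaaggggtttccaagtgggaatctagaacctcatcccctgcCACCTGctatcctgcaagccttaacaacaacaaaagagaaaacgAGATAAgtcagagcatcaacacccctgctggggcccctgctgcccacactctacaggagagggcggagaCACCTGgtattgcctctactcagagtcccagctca
Cd3d: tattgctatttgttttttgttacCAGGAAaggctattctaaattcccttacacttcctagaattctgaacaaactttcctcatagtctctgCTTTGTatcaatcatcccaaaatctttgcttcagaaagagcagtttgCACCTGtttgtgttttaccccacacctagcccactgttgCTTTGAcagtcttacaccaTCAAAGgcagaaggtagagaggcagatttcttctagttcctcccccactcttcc
Cd3e: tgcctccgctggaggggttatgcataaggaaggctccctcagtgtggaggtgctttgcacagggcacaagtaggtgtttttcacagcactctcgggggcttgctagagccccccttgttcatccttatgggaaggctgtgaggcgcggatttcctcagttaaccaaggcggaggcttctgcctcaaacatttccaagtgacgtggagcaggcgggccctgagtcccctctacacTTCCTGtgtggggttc
Cd247: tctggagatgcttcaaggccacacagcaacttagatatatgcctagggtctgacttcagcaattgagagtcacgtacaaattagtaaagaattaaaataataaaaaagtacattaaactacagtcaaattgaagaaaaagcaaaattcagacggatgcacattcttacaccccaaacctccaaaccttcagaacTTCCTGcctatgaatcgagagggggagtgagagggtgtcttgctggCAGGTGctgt

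An E-box as searched here (CAGCTG or CACCTG), the kind of site that E proteins bind, stands in the Cd3g, Cd3d and Cd247 windows and in 27.4% of 27025 promoters of the same length. The Cd3g window holds CACCTG at 148 to 143 and again at 35 to 30 bases before the start, the Cd3d window holds it at 112 to 107, and the Cd247 window holds CAGGTG, its reverse complement, at 10 to 5. A GATA match, which is AGATAA or TGATAA or either of these ending in G (AGATAG or TGATAG), was found in the Cd3g window alone of the 4, at 104 to 99 bases before the start, and in 27.1% of all promoters. TCF and LEF letters (CTTTGA or CTTTGT) were found in the Cd3d window alone of the 4, at 159 to 154, 73 to 68 and, on the other strand, 54 to 49 bases before the start, and in 27.7% of all promoters. ETS letters (CAGGAA or CCGGAA) were found in Cd3d at 227 to 222, in Cd3e at 16 to 11 and in Cd247 at 56 to 51 bases before the start, and in 34.9% of all promoters. RUNX letters (TGTGGT or TGCGGT) were in none of the 4 windows and in 18.7% of all promoters. Each of these shares is of promoters with at least 1 match, and a match describes letters in the window and nothing more. The share of G and C was 51.6% for Cd3g, 41.2% for Cd3d, 57.2% for Cd3e and 41.2% for Cd247.

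The files held 9967 cell barcodes in experiment 1 and 10556 in experiment 2, of which 39 occur in both. Cells with at least 500 genes and less than 10% mitochondrial UMIs numbered 9332 and 10214, and a single hashtag could be called for 94.3% and 81.6% of them. A UMI marks 1 captured mRNA molecule at its 3' end, so counts were not divided by length. Each hashtag held 691 to 1291 cells and 14502385 to 38067298 UMIs in experiment 1, and 855 to 1312 cells and 22272716 to 42684236 UMIs in experiment 2. Median depth per cell was 24753 and 26338 UMIs. Marker genes of mature T cells (Cd8a, Cd8b1, Cd4 and Trac) together stood at 0.195 to 3.33 CPM (counts scaled so that a culture's UMIs sum to 1000000) in the hashtags of experiment 1 and at 1.27 to 133.2 CPM in experiment 2, highest in hashtag 4 and next in hashtag 3 at 34.3 CPM. Granulocyte and monocyte markers together ran from 259.3 to 1538 CPM over the cultures of experiment 1, and over those of experiment 2 from 212.4 to 11974 CPM. The label cKit high was not borne by a Kit molecule in every cell: at 10000 UMIs per cell, 3883 of 8224 cells in experiment 1 and 2236 of 7746 in experiment 2 had one. Stromal markers ran from 1.42 to 63.7 and from 146.0 to 749.0 CPM, B cell markers from 44.6 to 52.9 and from 74.2 to 227.9 CPM, mast cell and basophil markers from 126.4 to 299.4 and from 112.2 to 838.1 CPM, and dendritic cell markers from 129.9 to 756.2 and from 243.5 to 1816 CPM. T progenitor markers stood at 429.8 to 998.3 and 217.5 to 926.3 CPM, and markers of NK-like cells at 907.0 to 2409 and 580.6 to 2742 CPM. No marker of these lists was at 0 in all hashtags of an experiment. Doublets within 1 hashtag were not removed.

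Cd3g was the most abundant chain in every culture. In experiment 1 its level was 29.6, 13.5, 173.7, 193.9, 132.2, 57.4, 16.7 and 13.7 CPM in hashtags 1 to 8. Hashtags 4, 3 and 5 stood highest, hashtag 6 lay between, and hashtags 2, 8 and 7 stood lowest. Hashtag 4 exceeded hashtag 2 by 14.4 times (95% interval 13.1 to 15.8). All intervals given here cover counting error only, and not the spread between cultures. Of the 7 steps between neighbours in the order of levels, 6 were larger than counting error, and hashtags 8 and 2 could not be separated.

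Cd3d and Cd3e, the partners of Cd3g in the complex, kept nearly the same order of cultures at lower levels. Cd3d stood at 4.68, 2.16, 28.3, 31.2, 17.9, 5.67, 7.34 and 3.59 CPM in hashtags 1 to 8 of experiment 1. Hashtag 4 was again highest and hashtag 2 lowest, with a ratio of 14.5 (11.5 to 18.5), which was 8.71 when hashtag 2 was left out. Hashtag 7 lay below hashtags 6 and 1 for Cd3g but above them for Cd3d, and hashtags 6 and 1, and 1 and 8, could not be separated. Cd3e stood at 1.31, 0.846, 7.21, 5.80, 4.25, 3.01, 1.40 and 1.24 CPM. Its highest culture was hashtag 3 and its lowest hashtag 2, with a ratio of 8.52 (5.83 to 12.9). Among hashtags 7, 1, 8 and 2 no step between neighbours in Cd3e exceeded counting error.

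Cd247 did not share this order in experiment 1. It stood at 4.54, 3.08, 3.71, 3.83, 15.5, 11.1, 12.9 and 9.10 CPM in hashtags 1 to 8. Hashtags 5, 7, 6 and 8 were high, and hashtags 3 and 4, where Cd3g was highest, lay among the 4 low ones. The ratio of hashtag 5 to hashtag 2 was 5.04 (4.05 to 6.30). Only 2 of the 7 steps between neighbours exceeded counting error: that from hashtag 5 to hashtag 7 and that between the 4 high and the 4 low cultures. Over the 8 hashtags, Pearson's r on log2(CPM + 1) was 0.92 for Cd3g with Cd3d, 0.97 for Cd3g with Cd3e and 0.94 for Cd3d with Cd3e. For Cd247 it was -0.10 with Cd3g, -0.05 with Cd3d and -0.07 with Cd3e. These values are descriptions over 8 pooled cultures that share 1 library, with no test.

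**Figure D1:**
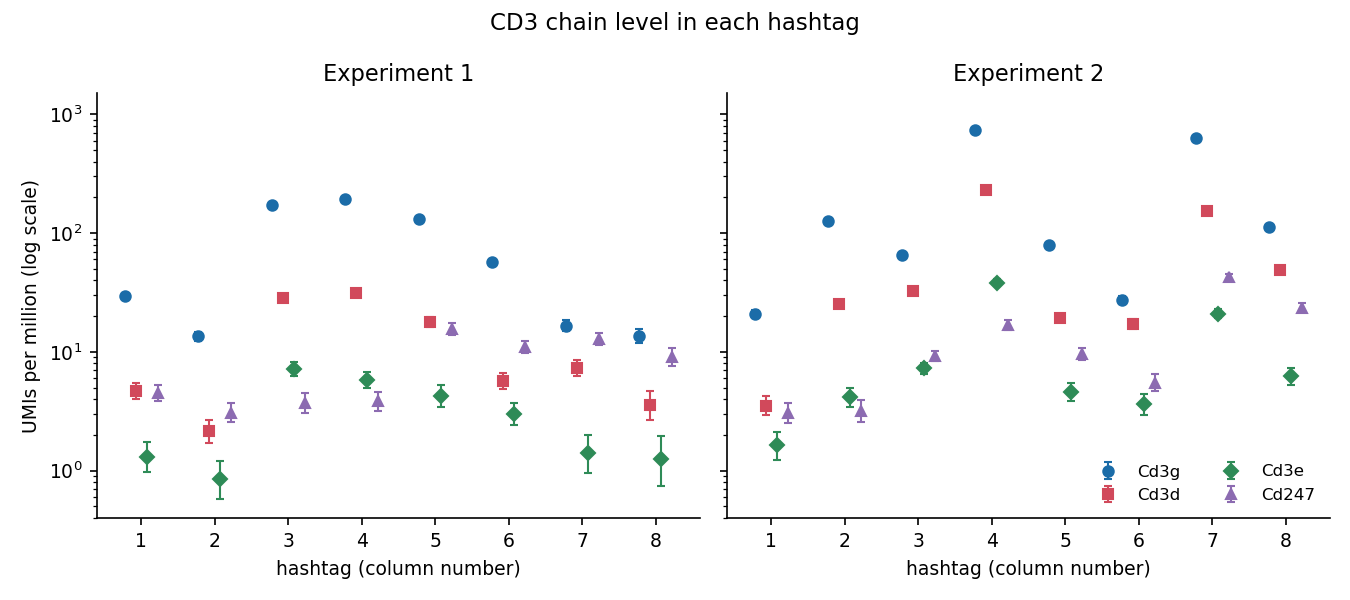
Level of Cd3g, Cd3d, Cd3e and Cd247 (CPM, log axis) in each hashtag of experiments 1 and 2, with bars for 95% counting intervals. In experiment 1, Cd247 is low in hashtags 3 and 4, where the other chains are highest; in experiment 2, hashtags 4 and 7 lead for Cd3g, Cd3d and Cd3e.

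In experiment 2 the cultures lay further apart. Cd3g stood at 20.9, 125.3, 64.9, 742.5, 79.2, 27.2, 632.8 and 112.2 CPM in hashtags 1 to 8. Hashtags 4 and 7 stood far above hashtag 2, the next, and all 7 steps between neighbours exceeded counting error. The ratio of hashtag 4 to hashtag 1 was 35.5 (33.0 to 38.3). Cd3d stood at 3.53, 25.1, 32.6, 231.7, 19.3, 17.1, 152.4 and 48.6 CPM. Hashtag 4 exceeded hashtag 1 by 65.7 times (54.8 to 79.3); the ratio of highest to lowest was 13.5 without hashtag 1 and 43.2 without hashtag 4. Hashtags 5 and 6 could not be separated.

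Cd3e stood at 1.63, 4.17, 7.26, 38.3, 4.62, 3.63, 21.0 and 6.24 CPM in experiment 2. Hashtags 4 and 7 led again, with a ratio of 23.5 (17.9 to 31.3) between hashtags 4 and 1, which was 10.6 without hashtag 1 and 12.9 without hashtag 4. The pairs 3 and 8, 5 and 2, and 2 and 6 could not be separated. Cd247 stood at 3.06, 3.18, 9.30, 16.9, 9.66, 5.50, 42.7 and 23.5 CPM. Hashtag 7 was highest and hashtag 8 next, ahead of hashtag 4, and the ratio of hashtag 7 to hashtag 1 was 13.9 (11.4 to 17.2), or 7.68 without hashtag 7. Pearson's r was 0.93 to 0.97 among Cd3g, Cd3d and Cd3e, and 0.74, 0.80 and 0.75 for Cd247 with each of them.

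A difference of at least 4 times between the highest and the lowest hashtag was found for all 4 chains in both experiments. Over all genes, counting those that averaged 2 CPM or more and had no fewer than 10 UMIs in any hashtag, such a difference was found for 4.43% (of 10106 genes, experiment 1) and 9.36% (of 10416 genes, experiment 2). Their median ratios were 1.35 and 1.43. By size of the ratio, Cd3d and Cd3g had rank 54 and 55, Cd3e 147 and Cd247 315 in experiment 1. In experiment 2 Cd3d had rank 18, Cd3g 43, Cd3e 68 and Cd247 139. With a minimum of 20 CPM, which Cd3g alone passes in experiment 1 and Cd3g and Cd3d pass in experiment 2, the shares were 1.54% of 5472 genes and 3.66% of 5108.

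The order of the chains within a culture had a fixed top and a movable middle. Cd3g had the most molecules in 8 of 8 hashtags of both experiments, and Cd3e had fewer than Cd3d in 8 of 8. Both statements held under each of the other cell filters, hashtag calls and scalings tried. Cd247 took the second place in 4 hashtags of experiment 1, the place after Cd3d in 2 and the last in 2. In experiment 2 it came between Cd3d and Cd3e in 6 hashtags and last in 2. Cd247 thus exceeded Cd3e in 6 of 8 cultures in each experiment and exceeded Cd3d only in experiment 1.

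For each 100 Cd3g molecules there were 15.9 Cd3d, 3.93 Cd3e and 8.82 Cd247 molecules in experiment 1, and 29.8, 5.01 and 6.38 in experiment 2. The ratio of Cd3d to Cd3g varied between cultures from 9.88 per 100 in hashtag 6 to 44.1 in hashtag 7 of experiment 1, and from 16.9 in hashtag 1 to 62.9 in hashtag 6 of experiment 2. Cd247 per 100 Cd3g had the widest range, 1.97 to 77.6 in experiment 1 and 2.28 to 21.0 in experiment 2. Leaving out cells with a UMI of a mature T cell marker lowered the Cd3d ratio in all 8 hashtags of experiment 2. It was 16.9, 20.1, 50.2, 31.2, 24.4, 62.9, 24.1 and 43.3 per 100 Cd3g in hashtags 1 to 8 with these cells, and 12.1, 19.8, 23.1, 22.5, 18.7, 37.5, 23.9 and 39.0 without them. In experiment 1 it was 15.8, 15.99, 16.3, 16.1, 13.5, 9.88, 44.1 and 26.3 with them, and 11.9, 11.3, 16.3, 15.99, 13.5, 9.10, 37.1 and 23.6 without. Hashtag 7 of experiment 1 had the highest ratio both ways. In experiment 2 the highest was hashtag 6 with these cells and hashtag 8 without them.

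Cells with at least 1 UMI of Cd8a, Cd8b1, Cd4 or Trac were few but held much of the Cd3d and Cd3e. In experiment 2 they were 4.68% of cells (390) and held 48.0% of all Cd3e molecules, 29.5% of Cd3d, 16.04% of Cd247 and 10.4% of Cd3g. In experiment 1 they were 0.909% of cells (80) and held 7.45% of Cd3e, 5.54% of Cd3d, 4.09% of Cd247 and 1.43% of Cd3g. With every cell thinned to 10000 UMIs, the 364 of these cells left in experiment 2 had 494.5 CPM of Cd3g, 397.0 of Cd3d, 111.5 of Cd3e and 42.9 of Cd247, against 255.9, 59.3, 7.15 and 14.96 CPM in the other cells. In hashtag 4 of experiment 2, Cd3e was 38.3 CPM with them and 14.7 without, Cd3d 231.7 and 165.3, and Cd3g 742.5 and 735.9. In hashtags 3 and 6, where Cd3g was 64.9 and 27.2 CPM with these cells, it was 43.5 and 15.1 without them.

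Cd3g, Cd3d and Cd3e were all higher in experiment 2 than in experiment 1. Over all cells of an experiment, Cd3g stood at 80.3 and 201.4 CPM, a ratio of 2.51 (2.47 to 2.55), Cd3d at 12.7 and 60.0 (4.71, 4.53 to 4.91), Cd3e at 3.16 and 10.1 (3.20, 2.94 to 3.49) and Cd247 at 7.08 and 12.8 (1.81, 1.71 to 1.93). A ratio of 2 or more was found for 3.54% of 10334 genes, and the median ratio was 0.907. The experiments differ in culture time and library and may differ in the mix of cultures pooled. These cannot be told apart, and there is 1 library of each. Without hashtag 4 of experiment 2 the ratios were 1.65 for Cd3g, 3.01 for Cd3d and 2.07 for Cd3e, and without hashtag 7 that of Cd247 was 1.34. Without the cells with mature T cell markers they were 2.38, 3.67, 1.88 and 1.66 in the order Cd3g, Cd3d, Cd3e and Cd247, so the ratio of Cd3e dropped below 2.

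Most cells had no molecule of any of the chains. At full depth, Cd3g was found in 16.3% of cells in experiment 1 and 27.9% in experiment 2, Cd247 in 12.1% and 18.5%, Cd3d in 9.56% and 21.2%, and Cd3e in 5.24% and 10.8%. At least 1 of the 4 was found in 26.5% and 37.5%. At 10000 UMIs per cell, which leaves out 573 and 589 shallower cells, the shares were 12.8% and 22.2% for Cd3g, 6.77% and 11.4% for Cd247, 6.20% and 14.8% for Cd3d, and 2.57% and 6.86% for Cd3e. The cells with Cd3g held many molecules of it: 4.71 to 14.9 on average per hashtag in experiment 1, 6.64 to 28.2 in experiment 2, and up to 141 and 190 in a single cell. Cd3d averaged 2.19 to 3.94 and 2.20 to 10.6 in the cells that had it.

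Cells with at least 30 UMIs of the genes of another lineage give a background for these shares. Of 569 granulocyte or monocyte cells chosen so in experiment 1 (median depth 35279 UMIs), 1.58% had Cd3g, 1.76% Cd3d, 0.351% Cd3e and none Cd247, which allows a share of up to 0.527%. Of 1024 such cells in experiment 2 (median depth 37141.5), 7.71% had Cd3g, 5.47% Cd3d, 1.95% Cd3e and 2.73% Cd247. At 10000 UMIs the shares were 0.533% and 4.26% for Cd3g, 0.710% and 1.98% for Cd3d, 0.178% and 0.416% for Cd3e, and 0% and 0.728% for Cd247. In the other gates, thinned alike, Cd3g was found in 6.67% of 90 mast cell or basophil cells of experiment 1, and in experiment 2 in 8.70% of 92 of these, 7.37% of 95 B-lineage cells and 7.66% of 209 stromal cells. Cd3d was found in 1.11% of the first and in 5.43%, 5.26% and 5.74% of the others, Cd3e in 1.11% and in 2.17%, 1.05% and 0.957%, and Cd247 in 6.67% and in 12.0%, 3.16% and 1.44%. The cultures reached this level in part. By share of thinned cells, some hashtags did not exceed the highest of these gates. For Cd3g they were hashtags 1, 2, 7 and 8 of experiment 1 (4.85%, 3.46%, 3.35% and 4.96%). In experiment 2 they were hashtags 1 and 6 (6.19% and 5.76%). All of these shares lay above the granulocyte or monocyte gate of the same experiment. The same holds for Cd3d in hashtag 2 of experiment 1 (0.952%) and hashtags 1 and 6 of experiment 2 (2.00% and 3.802%). It holds for Cd3e in hashtags 1, 2, 7 and 8 of experiment 1 (0.889%, 0.346%, 0.710% and 0.960%) and hashtags 1 and 6 of experiment 2 (1.80% and 2.07%). For Cd247, hashtags 1 to 4 of experiment 1 (2.51% to 4.68%) and hashtags 1, 2, 3, 5 and 6 of experiment 2 (3.60% to 9.03%) lay below the mast cell and basophil gate. The lowest culture of each ratio given above is thus among these by share of cells. By CPM at full depth, Cd3g was 13.5 in hashtag 2 of experiment 1 against 7.35 in the mast cell and basophil gate. In hashtag 1 of experiment 2 it was 20.9 against 36.1 in that gate. At full depth, the cells with Cd3g in the hashtags named for it held 4.71 to 11.5 UMIs of it on average in experiment 1. In experiment 2 they held 6.64 and 8.18.

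Joint detection of the chains was far from independent. The cultures held cells of several lineages, and the factor was not computed for other pairs of genes. Whether it is particular to these chains was not tested. At 10000 UMIs, cells with both Cd3g and Cd3d were 3.42 times as frequent in experiment 1 as the product of the separate shares within hashtags, and 2.26 times in experiment 2. The factor was 3.41 and 2.28 for Cd3g with Cd3e, 4.10 and 2.67 for Cd3d with Cd3e, 2.71 and 2.03 for Cd3g with Cd247, 3.14 and 2.27 for Cd3d with Cd247, and 2.32 and 2.44 for Cd3e with Cd247. It was above 1 in 8 of 8 hashtags of both experiments for every pair, except Cd3e with Cd247 in experiment 1, where it was above 1 in 7.

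The chains were nested, with Cd3g as the outer set. Of cells with Cd3e, 79.0% (74.9 to 82.6) in experiment 1 and 89.3% (87.1 to 91.3) in experiment 2 also had Cd3g, whereas of cells with Cd3g only 25.4% and 34.6% had Cd3e. Of cells with Cd3d, 77.4% and 83.3% had Cd3g, and of cells with Cd3g, 45.4% and 63.2% had Cd3d. Where exactly 1 of Cd3g, Cd3d and Cd3e was found, it was Cd3g in 671 of 922 cells (72.8%) and 745 of 1105 cells (67.4%). Where exactly 2 were found, they were Cd3g with Cd3d in 399 of 529 cells (75.4%) and 775 of 900 cells (86.1%), and Cd3d with Cd3e in 3.40% and 1.67%. The order of the sets is also the order of abundance of the chains.

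All 3 CD3 chains were found together in 252 cells (2.86%) of experiment 1 and 694 cells (8.33%) of experiment 2, and 87 and 424 cells had Cd247 as well. Between hashtags the share of cells with Cd3g, Cd3d and Cd3e ran from 0.289% to 7.58% and from 0.870% to 24.4%. At 10000 UMIs it was 0.924% and 5.00%. At that depth 80.4% and 71.7% of cells had none of the 4, 6.32% and 6.48% had Cd3g alone, 4.46% and 3.46% Cd247 alone, 2.93% and 4.79% Cd3g with Cd3d, and 0.280% and 2.34% all 4. Cells with Cd3d and Cd3e alone were 0.158% and 0.0387%.

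**Figure D2:**
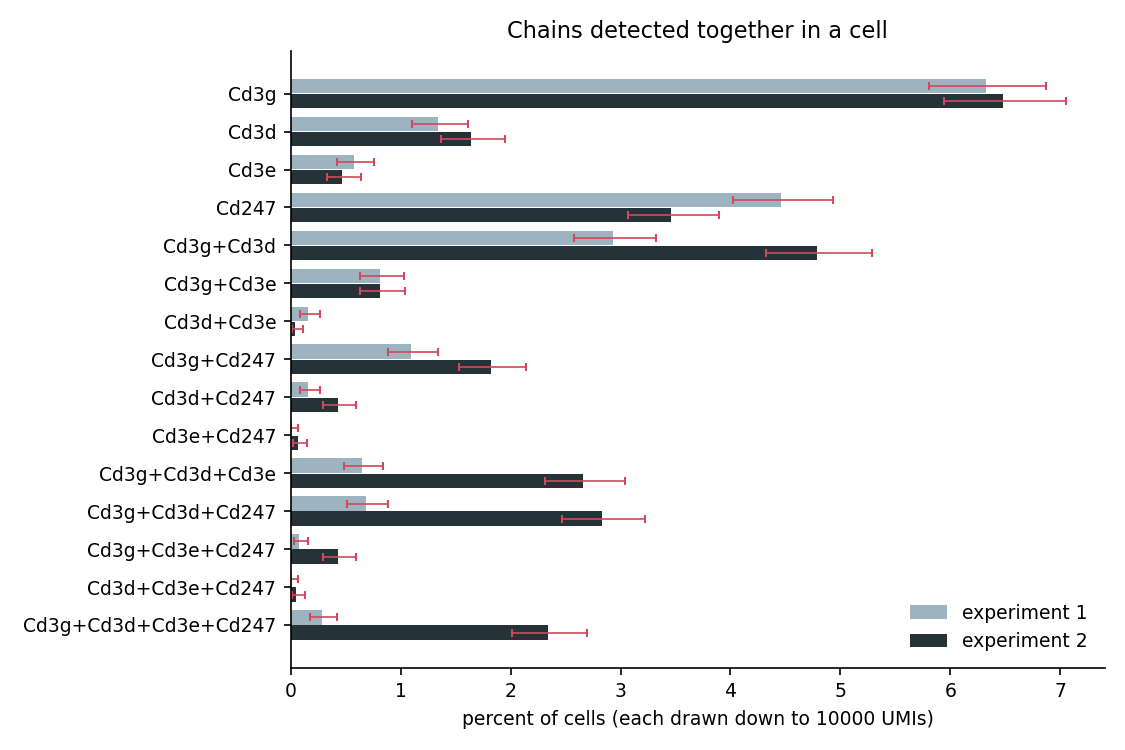
Share of cells (percent, each drawn down to 10000 UMIs) with each combination of Cd3g, Cd3d, Cd3e and Cd247 and no other chain, in experiments 1 and 2, with 95% Clopper-Pearson intervals as red lines; cells with none (80.4% and 71.7%) are not drawn. Cd3g alone (6.32% and 6.48%), Cd247 alone (4.46% and 3.46%) and Cd3g with Cd3d (2.93% and 4.79%) are the most frequent.

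Cd247 was less often joined by Cd3g over all cells. Of cells with Cd247, 35.5% in experiment 1 and 67.4% in experiment 2 had Cd3g, and the share between hashtags ran from 13.8% to 71.4% and from 37.3% to 90.3%. The range was 32.3% to 84.9% and 43.6% to 94.8% for cells with Cd3d, and 55.6% to 86.3% and 48.3% to 98.4% for cells with Cd3e, so the ranges of the 3 chains overlap. In reverse, 26.3% and 44.6% of cells with Cd3g had Cd247. Cd247 alone was found in 1.65% to 13.0% of the cells of a hashtag in experiment 1 and in 1.71% to 10.8% in experiment 2, at full depth.

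The more Cd3g molecules a cell had, the more often its partner chains were found. Cd3d was found in 2.58% of cells without Cd3g in experiment 1, and in 19.5%, 32.1%, 45.3%, 56.8% and 77.4% of cells with 1, 2 to 3, 4 to 7, 8 to 15 and at least 16 Cd3g UMIs. The same steps in experiment 2 were 4.89%, 17.4%, 44.0%, 59.2%, 76.7% and 89.2%. Cd3e went from 1.32% to 44.9% and from 1.60% to 56.0% over these classes. Cd247 went from 9.30% to 36.0% in experiment 1 and from 8.33% to 55.1% in experiment 2, where its highest share, 58.1%, was at 8 to 15 UMIs. The top class held 381 and 999 cells, with a median depth of 23168 and 20827 UMIs, against 24992 and 27764 in cells without Cd3g.

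**Figure D3:**
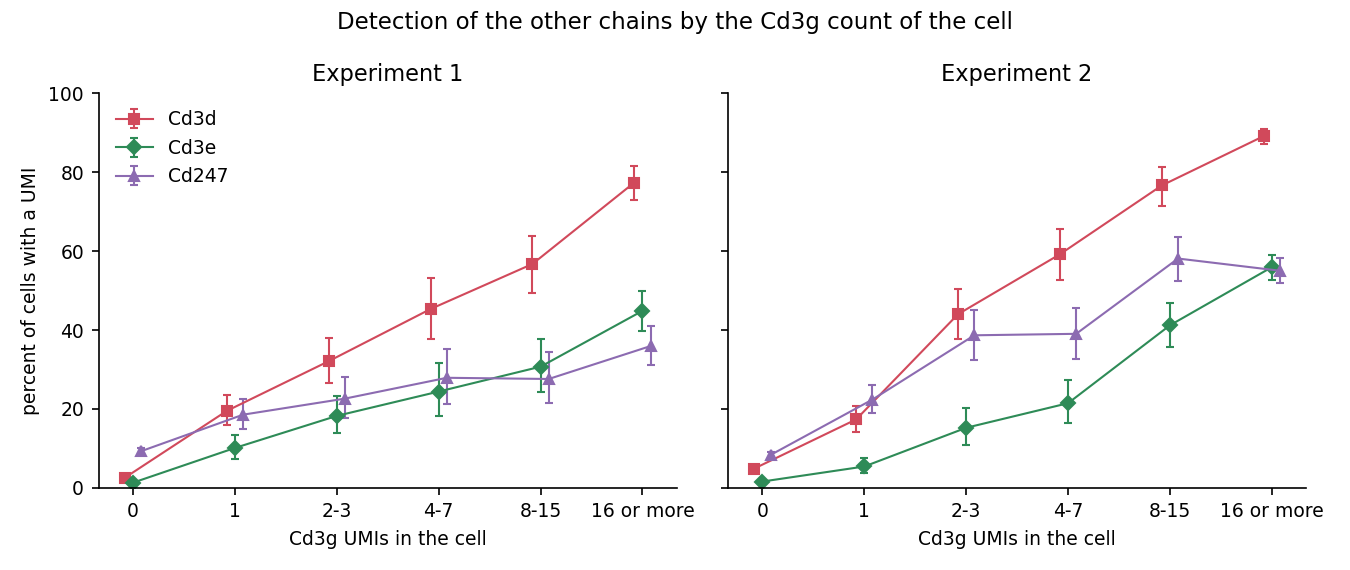
Share of cells (percent, full depth) with Cd3d, Cd3e and Cd247 by the number of Cd3g UMIs in the cell, in experiments 1 and 2, with 95% Clopper-Pearson intervals. Cd3d reaches 77.4% and 89.2% of cells with at least 16 Cd3g UMIs, while Cd247 starts higher than the others and ends at 36.0% and 55.1%.

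Levels of the chains differed between cells with and without Il2ra, and less between cells with and without Kit. At 10000 UMIs per cell, Cd3g was 91.6 CPM with Kit and 92.6 without in experiment 1, higher with Kit in 4 of 8 hashtags. In experiment 2 it was 228.6 and 282.7, higher with Kit in 0 of 8. The gates take in cells of every lineage present, so they do not by themselves place the chains along T cell development. With all cells at 10000 UMIs, cells with Kit and no Il2ra, the pattern of the earliest precursors, had 32.6 CPM of Cd3g in experiment 1 and 86.0 in experiment 2, with 5.43 and 20.4 of Cd3d, 1.48 and 2.91 of Cd3e, and 2.60 and 5.21 of Cd247. Cells with both Kit and Il2ra had 137.2 and 428.1 CPM of Cd3g, and cells with Il2ra and no Kit 152.4 and 561.2. Cells with Il2ra, the CD25 chain of the IL-2 receptor, had 145.0 CPM of Cd3g against 27.5 in cells without it, and 520.7 against 100.8. The ratio of cells with to cells without Il2ra was 5.27 and 5.17 for Cd3g, 4.71 and 3.62 for Cd3d, 3.63 and 2.83 for Cd3e, and 6.57 and 6.29 for Cd247, higher with Il2ra in 8 of 8 hashtags of both experiments except for Cd3e in experiment 2, in 7 of 8. A UMI of a gate gene is missed in many cells that express it, so a cell without one may still belong to the stage.

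Cells with Bcl11b, the commitment factor of the T lineage, had more of every chain. Cd3g stood at 473.1 CPM in cells with Bcl11b and 48.1 in those without in experiment 1, and at 1129 and 107.4 in experiment 2, higher in 8 of 8 hashtags each time. The ratio was 9.84 and 10.5 for Cd3g, 9.95 and 8.94 for Cd3d, 7.43 and 5.22 for Cd3e, and 3.91 and 4.79 for Cd247. Cells with Ptcra, the invariant chain of the pre-T cell receptor, were rare (90 and 176). They had 357.8 and 1790 CPM of Cd3g against 89.2 and 231.7 in the other cells. For Cd3d it was 93.3 and 608.5 against 13.4 and 62.8. No hashtag of experiment 1 had enough of these cells to compare within it. In experiment 2 both chains were higher in 2 of 2 hashtags with enough. Cells with Klrd1, an NK receptor chain (315 and 619 cells), had 34.3 and 35.7 CPM of Cd247 against 7.54 and 14.6 in the other cells, higher in 6 of 6 hashtags with enough cells in experiment 1 and in 6 of 8 in experiment 2. Their Cd3g was 33.3 against 94.5 CPM over all cells of experiment 1, yet higher in 4 of 6 hashtags, and 212.6 against 271.8 in experiment 2, higher in 3 of 8. Their Cd3d was 12.4 against 14.4 CPM (higher in 5 of 6 hashtags) and 175.8 against 66.5 (5 of 8), and their Cd3e 1.59 against 3.44 (2 of 6) and 53.3 against 8.47 (5 of 8). The direction for Cd3g, Cd3d and Cd3e thus differed between hashtags. Cells with Zbtb16, which encodes PLZF of innate lymphocytes, had 212.7 CPM of Cd3g against 77.3, and 454.6 against 251.2, yet were higher in only 4 of 7 and 2 of 5 hashtags.

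**Figure D4:**
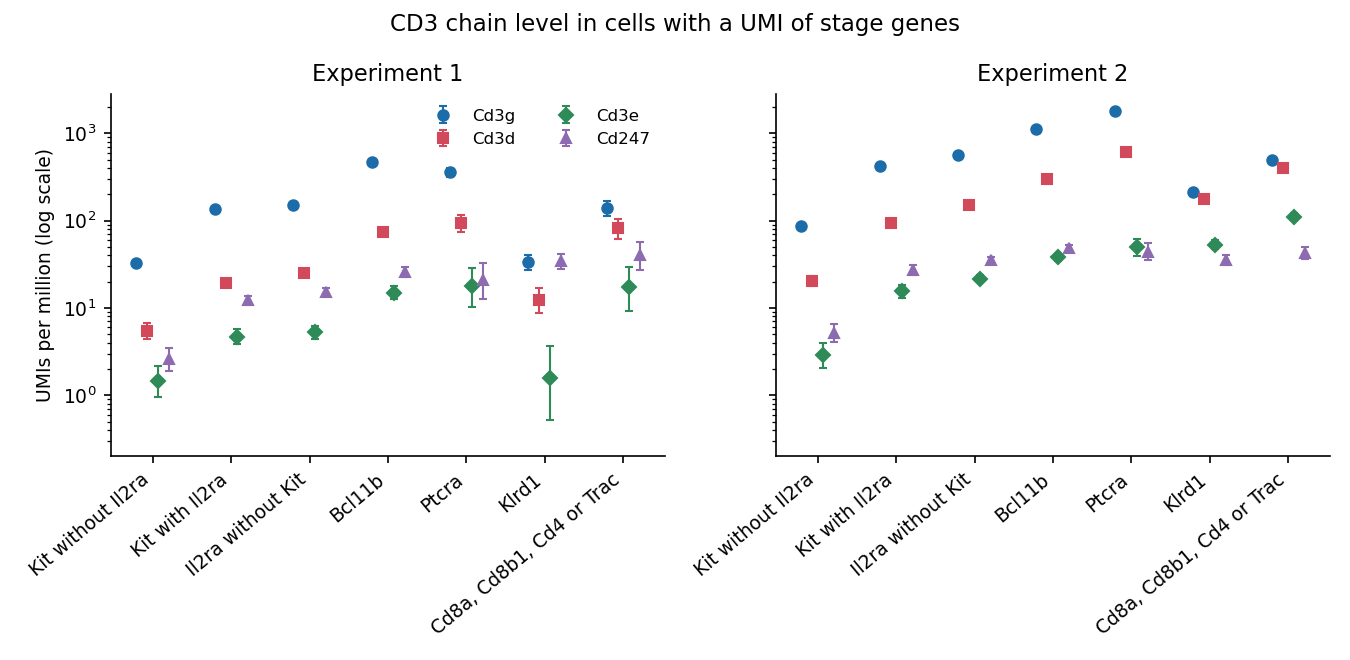
Level of each chain (CPM, log axis, 10000 UMIs per cell) in cells with a UMI of the stage genes named on the x axis, in experiments 1 and 2, with 95% counting intervals. Cd3g goes from 32.6 and 86.0 CPM in cells with Kit and no Il2ra to 473.1 and 1129 CPM in cells with Bcl11b; in cells with Klrd1 of experiment 1, Cd247 and Cd3g lie side by side at 34.3 and 33.3 CPM.

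The genes whose levels over the 8 hashtags were most like those of a chain were ranked among 4965 genes that averaged 20 CPM or more in each experiment, by the lower of the 2 values of Pearson's r. For Cd3g they were Sept6 (lower r 0.96), Ubl5, Ankrd12, Elovl5 and Sla2 (each 0.95). For Cd3d they were Top1 and Fam169b (0.95), Tcf12 (0.94), Cd3g and Mtf2 (0.92). For Cd3e they were Ormdl1 (0.94), Cd3g, Ube2d2a and Tcf12 (0.93) and Synj2bp (0.92). Cd3d, Cd3e and Cd247 fall under the 20 CPM minimum in 1 or both experiments, so they could not be named in these lists. Tcf12, an E protein gene, appears for both Cd3d and Cd3e, with 42.4 to 72.7 CPM over the hashtags of experiment 1 and 29.8 to 85.8 in experiment 2. For Cd247 they were Abhd8, Sh3glb2, Il2ra and Mier1 (each 0.95) and Tcrg-C2 (0.94), and none of these stands in the other 3 lists. Il2ra ran from 161.6 to 495.2 and from 63.3 to 341.4 CPM. A high r says nothing of the size of a difference: Ubl5 only ran from 343.1 to 389.4 CPM in experiment 1 while Cd3g ran over a 14.4-fold range.

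Among the genes that work with CD3, the receptor chain list had larger ratios between cultures than the signalling list. The shares of all genes at least 4-fold apart at 2 CPM, 4.43% and 9.36%, are the background of the counts that follow. The constant genes and Ptcra form a list of 8: 3 of 6 with enough UMIs were at least 4-fold apart between hashtags in experiment 1 and 7 of 8 in experiment 2, with median ratios of 3.90 and 10.1. Of 24 signalling genes, 2 of 21 and 9 of 23 were that far apart, with medians of 1.79 and 2.46. Lck, the kinase that phosphorylates the ITAMs, ran from 50.0 to 172.7 CPM over the hashtags of experiment 1, and over those of experiment 2 from 34.4 to 241.5, highest in hashtags 3 and 4. Zap70, which binds phosphorylated ITAMs, stood at 0.746 and 3.44 CPM over all cells, far below Syk, its close relative, at 34.8 and 25.4 CPM. Lat, the scaffold downstream of both kinases, ran from 37.2 to 91.0 and from 29.1 to 180.8 CPM. None of 3 related ITAM and YINM adaptors, Fcer1g, Tyrobp and Hcst, was 4-fold apart in either experiment.

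The other lists of genes chosen for these cells fell between. Of 14 T-lineage regulators 5 were at least 4-fold apart in each experiment, with medians of 2.63 and 3.10, among them Bcl11b, which ran from 3.33 to 35.0 and from 2.04 to 128.5 CPM. Of 10 progenitor genes 1 and 5 were, with medians of 2.09 and 4.53, and of NK and innate lymphoid genes 4 of 10 and 9 of 11, with medians of 3.62 and 8.44. Of 5 staging surface genes 1 and 3 were, with medians of 3.06 and 5.40. Between experiments, 2 of 8 receptor genes (Ptcra 2.23, Trac 14.98) and 4 of 24 signalling genes (Zap70 4.61, Themis 3.26, Cd28 2.66 and Cd2 8.23) had a ratio of experiment 2 to experiment 1 of 2 or more, against 3.54% of all genes, with list medians of 1.36 and 0.938. Of the NK and innate genes 4 of 10 were, with a median of 1.47, and of the adaptors, regulators, progenitor and staging genes none were, with medians of 1.28, 0.758, 0.878 and 0.899. No gene of these lists was at least 2-fold lower, against 0.358% of all genes.

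Cells with Cd3g, Cd3d and Cd3e together (76 and 387 at 10000 UMIs) were set against cells with none of the 4 chains (6616 and 5554), with each hashtag weighted by its own cells. Genes with at least 20 CPM in either set of cells were ranked by the median ratio over hashtags. The 2 and 4 hashtags with at least 20 cells of each kind were used, with 3 UMIs as the floor of a count. The 15 with the largest ratio in both experiments, among the genes ranked, were led by Ctla4, Gm4632, Skap1 and Bcl11b. Trac, Cd2 and Ptcra are not among the 15, although their medians were larger than those of Ctla4 (13.98 and 12.48). The medians were 33.4 and 160.9 for Trac, 33.4 and 48.9 for Cd2, and 14.3 and 13.9 for Ptcra. The 33.4 of experiment 1 is set by the floor and is not a measured ratio. Klrb1c, with no UMI in the cells with 3 chains there, had the same value. In experiment 1 Trac, Cd2 and Ptcra stood at 18.4, 17.1 and 10.5 CPM in the cells with 3 chains, below each of the 15. Zap70, Eomes, Tbx21 and Klrb1c also had larger medians than Ctla4 in both experiments and are not among the 15. Ctla4, an inhibitory receptor of T cells, stood at 52.6 and 52.5 CPM in the cells with 3 chains and at 2.61 and 3.38 in those with none, a weighted ratio of 28.5 and 11.6. Skap1, an adaptor of T cell adhesion, had ratios of 13.6 and 11.2, and Bcl11b 13.95 and 7.95. Further ones were Il2rb (10.5 and 15.4), Tnfrsf9 (7.96 and 11.1), Cd163l1 (9.38 and 6.02), Mcub (13.7 and 5.93), Ets1 (9.51 and 6.91), Tnfsf11 (4.09 and 5.29), Lef1 (14.96 and 5.62), Endou (7.64 and 6.03), Pdcd1 (4.02 and 9.69), 1700048O20Rik (4.65 and 4.51) and Rasgrp1 (3.95 and 4.91). Gm4632 had 32.3 and 14.8. The smallest ratios were those of Prtn3 (0.0788 and 0.0654), Cd34 (0.162 and 0.0562), Hbb-bt (0.185 and 0.0570), Ctsg (0.127 and 0.0670) and Ms4a6c (0.0991 and 0.0648), which are genes of granulocyte, stem and progenitor, red and monocyte cells. The 76 and 387 cells had a median depth of 21861.5 and 19709 UMIs before thinning, against 26214 and 29334.5 in the cells with none.

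The listed genes followed a similar split. Of the 8 receptor chain genes 6 in experiment 1 and 7 in experiment 2 were at least 2-fold higher in cells with 3 chains, against 7.96% and 6.46% of all genes tested, with list medians of 3.92 and 2.33 against 1.02 and 0.984 over all genes. Ptcra had 10.7 and 21.9, Trdc 5.91 and 4.68, Tcrg-C2 3.81 and 2.37. Of the 24 signalling genes 9 and 14 were higher and 0 and 1 (Syk, 0.444 in experiment 2) lower, against 8.1% and 9.36% of all genes at least 2-fold lower, with medians of 1.66 and 2.37. Lck had 2.26 and 2.70 and Lat 3.61 and 4.43. Progenitor genes were lower in 8 of 10 and 9 of 10, with medians of 0.282 and 0.146: Spi1, a factor of myeloid and early progenitors, had 0.295 and 0.0955, and Lmo2 had no UMI in the cells of experiment 1 (a limit of 3.95 CPM against 58.9) and 2.07 CPM against 77.3 in experiment 2. Flt3, counted among the lower genes, also had no UMI in the cells of experiment 1, a limit of 3.95 CPM against 3.82. Whether Flt3 was lower there cannot be told. Of 14 regulators 4 and 5 were higher and none lower, with medians of 1.81 and 1.41. Of the staging genes Thy1 (5.26 and 6.21) and Il7r (3.64 and 3.89) were higher and Cd44 (0.299 and 0.363) lower. Of the adaptors Tyrobp was lower in both (0.376 and 0.0706).

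Part of this difference lay in the cells with mature T cell markers, without which 71 of the 76 and 244 of the 387 cells remained. NK and innate lymphoid genes with enough counts were higher in 3 of 10 in experiment 1 and 11 of 15 in experiment 2 (medians 1.21 and 4.66), and without those cells in 2 of 9 and 1 of 10 (medians 0.932 and 0.421), with 3 and 6 lower. In experiment 2, Il2rb went from 15.4 to 0.489, Gzmb from 4.66 to 0.119, Tnfrsf9 from 11.1 to 2.68, Pdcd1 from 9.69 to 4.28 and Zap70 from 83.8 to 4.70. Bcl11b went from 7.95 to 12.0, Ptcra from 21.9 to 37.0, and Lck from 2.70 to 2.88, so these were as large or larger without the cells. Receptor chain genes were then higher in 5 of 7 in both experiments, signalling genes in 7 of 22 and 10 of 24, and regulators in 5 and 6 of 14, against 7.81% and 6.79% of all genes. Progenitor genes were lower in 8 of 10 both times, against 8.42% and 10.7% of all genes. These counts include Flt3, with 1 UMI in the cells of experiment 2. In experiment 1 it had none, a limit of 4.23 CPM against 3.78, so there it cannot be called lower.

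**Figure D5:**
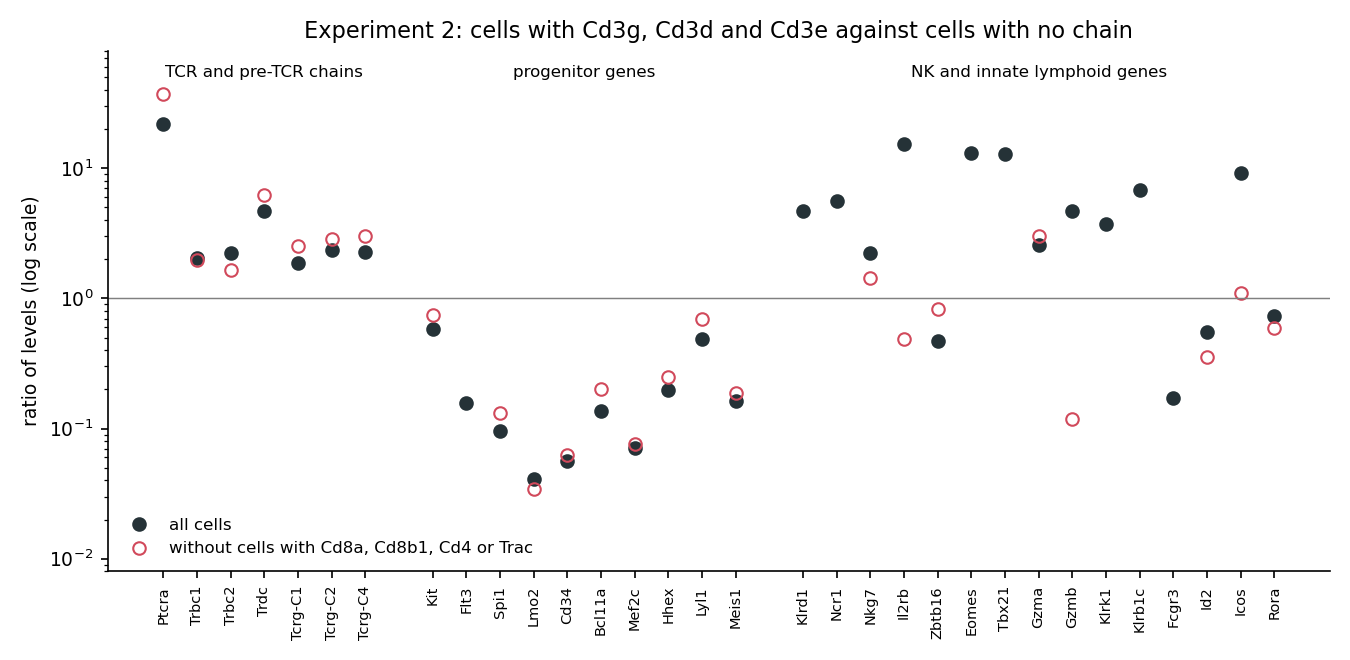
Ratio of level (log axis, 10000 UMIs per cell) between cells with Cd3g, Cd3d and Cd3e and cells with none of the 4 chains in experiment 2, for 3 lists of genes named on the x axis, over all cells (filled) and without cells with Cd8a, Cd8b1, Cd4 or Trac (open); an open point is drawn where the cells with 3 chains hold at least 3 UMIs, and Trac, which is part of the gate, is left out. Receptor chain genes lie above 1 and progenitor genes below it both ways, while Il2rb goes from 15.4 to 0.489 and Gzmb from 4.66 to 0.119.

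Cells with Cd247 and no other chain (367 and 268) were set against the same cells with none. NK and innate lymphoid genes were at least 2-fold higher than in cells with none of the chains in 9 of 12 and 10 of 14, against 3.92% and 5.04% of all genes, with medians of 3.53 and 4.95. Klrd1 stood at 49.9 and 72.4 CPM against 9.01 and 17.5, a weighted ratio of 3.78 and 3.32, and Klrk1, another NK receptor, had 13.98 and 5.37. Ncr1, a receptor that defines NK and related innate cells, stood at 3.81 and 22.0 CPM against 0.272 and 1.10. Receptor chain genes were higher in 4 of 6 and 5 of 7, among them Trdc (3.10 and 4.59) and Tcrg-C2 (2.24 and 2.74), whereas Ptcra had 1.11 and 1.45. Progenitor genes were lower in 5 of 10 and 7 of 10, against 2.78% and 7.16% of all genes. The comparison of Cd247 cells with cells with 3 chains was not made directly, and both share the cells with none.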

How the data were processed

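Single cells were captured with 10x Chromium v3 chemistry, with 1 mRNA and 1 hashtag library in each of 2 experiments. The authors deposited raw UMI counts per gene and barcode and raw hashtag counts per barcode. Cell Ranger 3.0.0 and the builds mm10 and GRCm38 are named in the submitters' processing notes; the aligner's settings are not given in the sources used here. Cells with at least 500 genes and less than 10% mitochondrial UMIs were kept. A hashtag was called where the highest of 8 tags had at least 50 counts and 3 times the next. No doublet caller was run. UMIs were summed per hashtag and divided by the summed UMIs of its cells (CPM). For comparisons between cells, each was thinned to 10000 UMIs. Intervals are 95% exact Poisson, conditional and Clopper-Pearson intervals and cover counting error only. Labels do not say whether hashtags are separate animals. The members and lists were chosen with earlier results of these data known. Genes were named if they were members, listed, among the 5 most like a chain, or among 15 largest and 5 smallest ratios. These ratios are of cells with 3 chains, among genes with at least 20 CPM in either set of cells, with 3 UMIs as the floor. That minimum leaves Trac, Cd2 and Ptcra, among others, out of the 15. Alternatives were other hashtag calls (HTODemux in Seurat 5.3.0), cell filters, TMM scaling (edgeR 4.0.16), means over cells, thinning, leaving out cells or single hashtags, and other minimum levels. Leaving out cells with mature T cell markers, the gate of 30 UMIs and the minimum of 2 CPM were added after seeing the data. Python 3.11.15 with NumPy 2.4.6, SciPy 1.17.1 and pandas 2.3.3 was used, and the scripts were tested on simulated data. The result of 1 listed gene is not reported here.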

Additional observations from a re-analysis of the deposited data

Results flagged for a closer look

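The CD3 chains were also present in barcodes that the cell filter removed and that no main comparison uses. Those with a called hashtag enter only the setting without a cell filter. In experiment 1, 635 such barcodes (median depth 2683 UMIs) held 667.3 CPM of Cd3g, 78.5 of Cd3d, 12.4 of Cd3e and 34.4 of Cd247, each above its level in the kept cells. In experiment 2, 342 such barcodes (median depth 1661.5 UMIs) held 177.0 CPM of Cd3g, 128.0 of Cd3d, 20.9 of Cd3e and 29.1 of Cd247. There Cd3g was below its level of 201.4 CPM in the kept cells, and the other 3 chains were above theirs. Cd3g was found in 19.5% of the removed barcodes of experiment 1, against 16.3% of kept cells at much greater depth. No single hashtag stood apart from the other 7 by Dixon's criterion at the 95% level in any of the 16 sets of values examined. The criterion sets the gap to the nearest hashtag against the range, so it can miss 2 hashtags that are high together. Hashtags 4 and 7 of experiment 2, at 742.5 and 632.8 CPM of Cd3g against 125.3 in the next, were not flagged.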

How the results depend on the processing

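No ratio between experiments reversed its direction. A ratio of the highest to the lowest hashtag is always taken from the larger to the smaller, and a share has no direction, so neither could reverse. Of the recomputed values of the main results, 104 stayed within their counting interval or within 1.5 times the main count. A further 66 moved beyond it. The other recomputed values were the share of cells with each chain and the ratios of cells with 3 chains to cells with none. Of these, 179 stayed within such limits, 53 moved and 5 reversed. Ratios of the highest to the lowest hashtag are given as experiment 1 and experiment 2, and ratios of experiment 2 to experiment 1 as between experiments.
With a hashtag call at 100 counts and 5 times, the Cd3g ratio was 16.2 and 31.8, cells with any chain were 39.2% in experiment 2, and the values between experiments were 2.71 for Cd3g and 4.95 for Cd3d. With HTODemux, Cd3g was 16.3 and 38.4 and any chain 36.4% in experiment 2. With 1000 genes and 5% mitochondrial UMIs, any chain was 24.6% in experiment 1, and between experiments Cd3g was 2.66 and Cd247 2.19. Without a cell filter, Cd3g was 2.35 and Cd3d 4.52 between experiments. With TMM scaling, Cd3g was 32.5 in experiment 2, and between experiments Cd3g was 2.64 and Cd3d 4.96. As means over cells, Cd3g was 16.8 and 39.3, Cd3d 19.8 and 87.4, and between experiments Cd3g was 3.13, Cd3d 5.92 and Cd3e 3.91. Thinned to 10000 UMIs, Cd3e was 17.7 and 14.9, cells with all 3 CD3 chains 0.924% and 5.00%, any chain 19.6% and 28.3%, and between experiments Cd3g was 2.90, Cd3d 5.26 and Cd3e 3.58.
Without cells holding 3 or more UMIs of another lineage, which leaves 1873 and 1307 cells, Cd3g was 21.0 and 17.0, Cd3d 45.1 and Cd3e 16.4 in experiment 2, all 3 chains 3.47% and 16.4%, any chain 50.3% in experiment 2, and between experiments Cd3g was 4.29, Cd3d 7.95, Cd3e 5.38 and Cd247 2.76. With 30 UMIs as the limit, Cd3g was 27.1 and Cd3d 54.5 in experiment 2, any chain 28.1% and 41.8%, all 3 chains 9.63% in experiment 2, and between experiments 2.81, 5.28, 3.57 and 2.04 in the order Cd3g, Cd3d, Cd3e and Cd247. Without cells with Cd8a, Cd8b1, Cd4 or Trac, Cd3g was 17.1 and 48.8, Cd3d 24.1 and Cd3e 20.3 in experiment 1, all 3 chains 6.42% and any chain 36.1% in experiment 2, and between experiments 2.38, 3.67, 1.88 and 1.66. In the same setting, ratios of cells with 3 chains to cells with none were checked for a turn where they were at least 2-fold from 1. Among the reported ones, Il2rb (0.489), Gzmb (0.119), Cd5 (0.658) and Cd6 (0.594) turned direction in experiment 2. The median of the NK and innate lymphoid genes (0.421) did so too. Smaller ratios also crossed 1, among them Fyn (1.66 to 0.776) in experiment 2. In experiment 1 Gzmb (1.13 to 0.763) and the median of the NK and innate lymphoid genes (1.21 to 0.932) were among them. For 8 named genes in each experiment fewer than 3 UMIs were left and no ratio is given, among them Klrd1 and Klrk1 in experiment 2, under 1.23 CPM against 17.2 and 10.6 CPM. These settings leave out cells; the cause of the other changes was not tested.
Genes at least 4-fold apart numbered 84 and 187 at a mean of 20 CPM, 38 and 97 at 50 CPM, and 448 and 975 at 2 CPM, where more genes are tested.
Leaving out 1 hashtag at a time, Cd3g ran from 12.9 to 14.4 and from 27.3 to 35.5, Cd3d from 8.71 (without hashtag 2) to 14.5 and from 13.5 (without hashtag 1; 43.2 without hashtag 4) to 65.7, Cd3e from 5.81 to 8.52 and from 10.6 (without hashtag 1; 12.9 without hashtag 4) to 23.5, and Cd247 from 4.19 to 5.04 and from 7.68 (without hashtag 7) to 13.9. Cells with all 3 chains ran from 2.11% to 3.26% and from 5.71% to 9.38%, and with any chain from 24.0% to 28.8% and from 33.3% to 40.1%. Between experiments, Cd3g ran from 1.65 to 3.27, Cd3d from 3.01 to 6.20 and Cd3e from 2.07 to 3.99, each lowest without hashtag 4 of experiment 2, and Cd247 from 1.34 to 2.07, lowest without hashtag 7 of experiment 2.
No paired analysis was possible because the results come from no test and a hashtag number does not name the same culture in both experiments. Depth limits Cd3e most, at 0.846 CPM in its lowest hashtag.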

Other observations

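Cells that passed the cell filter but had no clear hashtag belong to no culture and were left out above. In experiment 1, 496 cells whose highest tag did not stand out (median depth 44710.5 UMIs) had 93.9 CPM of Cd3g, 13.1 of Cd3d, 3.00 of Cd3e and 6.97 of Cd247. In experiment 2, 1241 such cells (median depth 36685) had 170.8, 59.1, 11.5 and 14.5 CPM. A further 638 cells of experiment 2 had no tag at 50 counts; they had 25.2 CPM of Cd3g, 13.7 of Cd3d, 2.59 of Cd3e and 3.53 of Cd247, and 6.74% of them had Cd3g. The 39 cells of this kind in experiment 1 had 1 Cd3g molecule in all.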
